A study of Mus musculus with 8 samples.

Results

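The high mobility group (HMG) proteins and the nuclear lamins are abundant structural proteins of the nucleus. Transcripts of 10 of them were followed in murine pancreatic ductal adenocarcinoma (PDAC) cells treated with a MEK inhibitor: the HMG-box genes Hmgb1, Hmgb2 and Hmgb3, the AT-hook genes Hmga1 and Hmga2, the nucleosome-binding genes Hmgn1 and Hmgn2, and the lamin genes Lmna, Lmnb1 and Lmnb2. The genes were taken by symbol from a table of 34478 genes, and all 10 were found in it. The cells were 4 primary lines, numbered #1, #3, #5 and #10, that had been grown out of tumor pieces from genetically engineered mice that carry Ptf1awt/Cre and Trp53loxP/loxP. Every library, controls included, therefore comes from cells with floxed Trp53 alleles and a Cre that the pancreatic Ptf1a locus drives. Control cells received DMSO, and treated cells received trametinib, an inhibitor of MEK1 and MEK2, for 48 h at the IC50 of their own line (MEKi). The mouse that gave each line, its age and the IC50 values are not given in the sources used here. Each line gave 1 library per treatment, 8 in all, so p-values measure the spread of the treatment effect between 4 lines and not between cultures of 1 line.

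HMG proteins bend, open or bridge chromatin. HMGB proteins bind DNA through HMG boxes, and HMGB1 released from a cell acts as an alarm signal on receptors of its neighbors. HMGA proteins grip the minor groove of AT-rich DNA through short AT hooks and are high in embryonic and transformed cells, while HMGN proteins sit on nucleosomes and counteract linker histones. Lamins form the meshwork under the inner nuclear membrane. A-type lamins come from Lmna and B-type lamins from Lmnb1 and Lmnb2. These genes are followed in studies of proliferation and senescence because loss of lamin B1 and HMGB2, export of HMGB1 and HMGA-containing heterochromatin foci are known features of senescent cells. The question put to the data was which of these transcripts differed between MEKi and DMSO, by how much, and how alike the 4 lines were.

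Sequences are shown for 2 sets of members, as descriptions that were not tested against the expression values. The first is the AT-hook coding sequence of Hmga1 and Hmga2, the members with the largest falls, since the AT hook is what these proteins share. The lines below give the coding bases of the first coding exon of Hmga1 (chr17:27559569-27559703, + strand) and of Hmga2 (chr10:120475953-120476063, - strand) in GENCODE M21 transcripts on GRCm38. Capitals mark the codons of the first arginine-glycine-arginine-proline core of an AT hook. Each protein has 3 such cores.
Hmga1: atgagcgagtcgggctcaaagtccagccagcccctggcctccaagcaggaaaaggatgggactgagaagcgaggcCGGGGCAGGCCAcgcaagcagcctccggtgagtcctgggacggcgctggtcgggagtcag
Hmga2: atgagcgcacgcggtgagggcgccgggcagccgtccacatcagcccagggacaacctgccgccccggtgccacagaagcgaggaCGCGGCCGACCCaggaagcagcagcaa
Without the stop codon, the coding sequence holds 321 bases in Hmga1 and 324 in Hmga2.

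The second set is the promoters of Hmgb2 and Hmgb3, the HMGB genes with the largest and the smallest change. RefSeq promoter windows of 300 bases on GRCm38.p6, from 250 bases before to 50 after a transcript start, were found for 9 of the 10 genes. The windows of Hmgb2 (chr8:57511593-57511892, + strand) and Hmgb3 (chrX:71555667-71555966, + strand) follow, with capitals at each TTTGAA and CCAAT or their reverse complements.
Hmgb2: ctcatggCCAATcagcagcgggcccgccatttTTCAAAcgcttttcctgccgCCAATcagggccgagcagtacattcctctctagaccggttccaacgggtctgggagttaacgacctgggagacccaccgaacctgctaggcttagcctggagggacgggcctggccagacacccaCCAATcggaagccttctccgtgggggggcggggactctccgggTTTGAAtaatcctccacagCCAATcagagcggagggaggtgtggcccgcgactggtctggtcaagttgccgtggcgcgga
Hmgb3: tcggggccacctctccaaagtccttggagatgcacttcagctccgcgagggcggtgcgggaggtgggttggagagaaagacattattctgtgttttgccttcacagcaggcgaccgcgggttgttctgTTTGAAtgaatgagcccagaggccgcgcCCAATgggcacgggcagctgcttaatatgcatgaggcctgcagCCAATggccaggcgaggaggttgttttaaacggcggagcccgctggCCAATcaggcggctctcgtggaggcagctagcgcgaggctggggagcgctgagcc
TTTGAA is the core of the cell cycle homology region (CHR) of many cell cycle promoters, and CCAAT is the element bound by NF-Y. Hmgb2 held 2 TTTGAA and 4 CCAAT matches, and Hmgb3 held 1 and 3. The pair of motifs occurred together in 6.95% of all 32851 windows, and among the 9 genes only in Hmgb2 and Hmgb3, so it was present at both ends of the range of HMGB changes. CCAAT alone, found in 37.4% of all windows, was also present in Hmgb1, Hmgn1, Hmgn2 and Lmna. Other searches on both strands gave CCGGAAG, the ETS core (8.86% of windows), in Hmgb1 and Lmna, TGACTCA, the AP-1 site (5.20% of windows), in Lmna, and CACGTG, the E-box (7.15% of windows), in Hmgb1 and Hmgn2. TTTCCCGC, an E2F site (1.07% of windows), was in none of the 9. Such matches are descriptions of letters in these windows only.

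Library totals ranged from 30680091 to 36385719 normalized counts, and the spacing of low values put depth at about 29300000 to 45900000 reads per library. A floor of 3 reads corresponded to 2.33 to 3.72 normalized counts, far under the lowest value of any HMG or lamin gene studied, 702.9 for Lmnb2 (about 750 reads). The MEK readouts Dusp6 and Etv4 fell in 4 of 4 lines, with log2 fold changes of -2.51 and -5.92. Ductal markers summed to 222234 to 350363 normalized counts with DMSO and 114056 to 222637 with MEKi. Of 8 such markers, 5 were lower and 1 was higher with MEKi, and Epcam was listed at 0 in both libraries of every line but #3, where it read 10.4 with DMSO and 3.75 with MEKi. Summed markers of fibroblasts were 96.9 to 369 with DMSO and 440 to 1260 with MEKi, and those of endothelium 35.2 to 62.9 and 63.7 to 837. Leukocyte markers summed to 155 to 242 and 239 to 515, and acinar markers to 49.6 to 278 and 22.3 to 156. Of the fibroblast, endothelial and leukocyte lists, 1 gene each was called higher (Col1a1, Tek and Csf1r) and 0 were lower. Lum and Cpa1 were listed at 0 throughout. The part of these shifts in the results was not tested. In bulk RNA, fewer cells of a kind and less RNA per cell cannot be told apart.

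Transcripts of 9 of the 10 HMG and lamin genes were lower with MEKi, and 0 were higher. The exception was Hmgb3, whose adjusted p missed the threshold. Genes were compared with limma on log2(normalized count + 1), with the line as a block, Benjamini-Hochberg adjustment over 15888 genes and a threshold of 0.05. All 10 genes passed the filter at a mean of 10. Over all tested genes, 25.6% were called lower and 27.3% higher. Of called genes 51.6% were higher. That share was 61.9% after rescaling to equal library totals, 47.2% with quantile normalization and 46.1% after centring on the median. The median log2 fold change was -1.16 over the HMG and lamin genes and 0.07 over all tested genes. Each of the 10 genes had a lower value with MEKi in all 4 lines, a pattern whose share over all tested genes is not given here. For 7 of the 10 genes every MEKi library lay below every DMSO library, which held for 16.2% of tested genes. When a change beyond 2-fold was required (limma treat), 3 remained called, Hmga1, Hmga2 and Hmgb2.

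**Figure D1:**
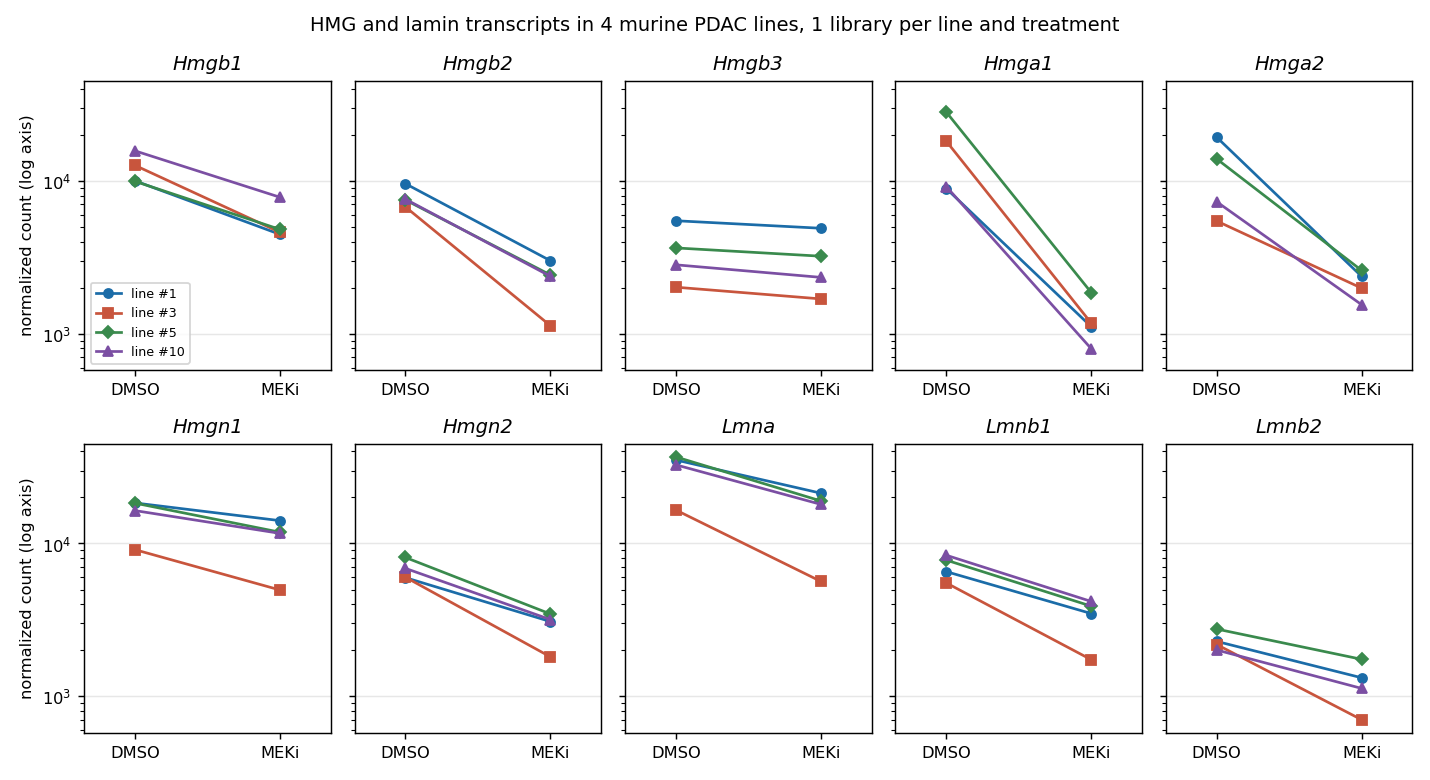
Normalized count (log axis) of each HMG and lamin gene in the DMSO and MEKi library of each line, with both libraries of a line joined. Every joined pair slopes downward, steeply for Hmga1 and hardly for Hmgb3, and for Hmgb3, Hmgn1 and Lmna the groups overlap.

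Hmga1, which encodes an AT-hook architect of enhancer complexes, fell most (chr17:27556497-27563674, + strand). Its normalized counts in lines #1, #3, #5 and #10 were 8903, 18172, 28175 and 9174 with DMSO and 1110, 1171, 1857 and 796.7 with MEKi. The groups did not overlap, and between 6.45% and 12.5% of the DMSO level was left in each line. Its log2 fold change was -3.60 (SE 0.17, adjusted p = 9.44e-05 in limma), the 41st largest fall among 15888 genes. With DMSO, lines #3 and #5 stood above lines #1 and #10, and the ratio of the highest to the lowest line was 3.17. Of the 31-base words in Hmga1 transcripts, 62.1% occur also in other annotated sequence, so the level of the Hmga1 row, and its difference between lines, is uncertain.

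Hmga2, the other AT-hook gene and a known let-7 target (chr10:120361275-120476469, - strand), read 19286, 5458, 13911 and 7294 normalized counts with DMSO and 2366, 1984, 2591 and 1546 with MEKi. The DMSO lines differed by a ratio of 3.53, and the MEKi lines by 1.68. The log2 fold change was -2.29 (SE 0.23, adjusted p = 0.000568 in limma), and 1.00% of tested genes had a lower value. By line it was -3.03, -1.46, -2.42 and -2.24. Line #3 had the lowest DMSO level and the smallest fall, which set Hmga2 apart from the other members. The log2 ratio of Hmga2 to Hmga1 changed by -0.02 in line #1, by 2.50 in line #3 and by 1.29 in line #10, with line #5 between the last 2. In line #1 both HMGA transcripts changed by nearly the same amount, and in the other lines Hmga1 had the larger change. These ratios carry the uncertainty of the Hmga1 row.

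Hmgb1 encodes an HMG-box protein that doubles as an alarmin (chr5:149046702-149184489, - strand). It read 9997, 12616, 9919 and 15700 normalized counts with DMSO and 4460, 4604, 4807 and 7803 with MEKi. Line #10 was highest in both treatments, and the groups did not overlap. Hmgb1 had a log2 fold change of -1.17 (SE 0.10, adjusted p = 0.000382 in limma), from -1.45 in line #3 to -1.01 in line #10.

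Hmgb2, a paralog tied to dividing cells (chr8:57511907-57515999, + strand), read 9574, 6751, 7492 and 7587 with DMSO and 3001, 1127, 2422 and 2372 with MEKi. All MEKi libraries were below all DMSO libraries, and line #3 was lowest in both groups. Hmgb2 changed by -1.89 on the log2 scale (SE 0.17, adjusted p = 0.000437 in limma). It was -2.58 in line #3 and between -1.68 and -1.63 in the other lines. Hmgb2 thus fell further than Hmgb1 in each line, and their log2 ratio changed by -0.72 ± 0.28 (SD, n = 4), from -1.13 in line #3 to -0.51 in line #1.

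Hmgb3, the X-linked HMG-box gene (chrX:71555918-71560676, + strand), read 5479, 2014, 3638 and 2821 with DMSO and 4893, 1688, 3212 and 2335 with MEKi. The lines kept their order, and the differences between lines, a ratio of 2.72 with DMSO, were larger than the difference between treatments. Its log2 fold change was -0.22 (SE 0.08, 95% confidence interval -0.40 to -0.03, adjusted p = 0.0504 in limma). The value was below 0 in 4 of 4 lines, from -0.27 to -0.16, and 35.2% of all tested genes had a lower one. Scaling moved the estimate to -0.09 with equal totals (adjusted p = 0.357 in limma), -0.11 with quantile normalization (0.263) and -0.28 after centring on the median (0.0226). Of 16 alternatives, 5 put Hmgb3 past the threshold. The log2 ratio of Hmgb3 to Hmgb2 changed by 1.67 ± 0.44 (SD, n = 4). Per kb of exon, the Hmgb3 level was below that of Hmgb2 in 4 of 4 DMSO libraries and above it in 4 of 4 MEKi libraries.

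Hmgn1, a nucleosome-binding protein that loosens chromatin (chr16:96120618-96127729, - strand), read 18421, 9111, 18363 and 16413 with DMSO and 14107, 4962, 11852 and 11646 with MEKi. Line #3 was lowest in both treatments, and its DMSO value lay below 3 of the MEKi values. Hmgn1 had a log2 fold change of -0.60 (SE 0.10, adjusted p = 0.00355 in limma, 0.239 without the line as a block).

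Hmgn2, its paralog (chr4:133964738-133968650, - strand), read 5980, 6020, 8104 and 6876 with DMSO and 3085, 1812, 3459 and 3178 with MEKi, with no overlap. Hmgn2 had a log2 fold change of -1.26 (SE 0.13, adjusted p = 0.00068 in limma). Hmgn2 fell further than Hmgn1 in each line, and their log2 ratio changed by -0.66 ± 0.13 (SD, n = 4), from -0.86 in line #3 to -0.57 in line #1.

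Lmna, which gives lamins A and C (chr3:88480147-88509956, - strand), read 35177, 16560, 36863 and 32707 with DMSO and 21334, 5651, 18983 and 18026 with MEKi. Line #3 held the lowest value in both groups, and its DMSO library lay below the MEKi libraries of the other 3 lines. Lmna had a log2 fold change of -1.02 (SE 0.15, adjusted p = 0.00171 in limma, 0.113 without the line as a block).

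Lmnb1, which gives lamin B1 (chr18:56707813-56753424, + strand), read 6548, 5523, 7787 and 8380 with DMSO and 3481, 1737, 3891 and 4176 with MEKi. The groups did not overlap. Lmnb1 had a log2 fold change of -1.15 (SE 0.14, adjusted p = 0.000989 in limma), with -1.67 in line #3.

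Lmnb2, which gives lamin B2 (chr10:80901203-80918245, - strand), read 2289, 2184, 2757 and 2011 with DMSO and 1323, 702.9, 1747 and 1127 with MEKi, again with no overlap. The log2 fold change was -0.98 (SE 0.17, adjusted p = 0.00323 in limma), with -1.63 in line #3. The 3 lamin transcripts fell by similar amounts. The log2 ratio of Lmnb1 to Lmna changed by -0.12 ± 0.06 (SD, n = 4), and that of Lmnb2 to Lmna by 0.04 ± 0.18 (SD, n = 4). These ratios are given as descriptions with no test.

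**Figure D2:**
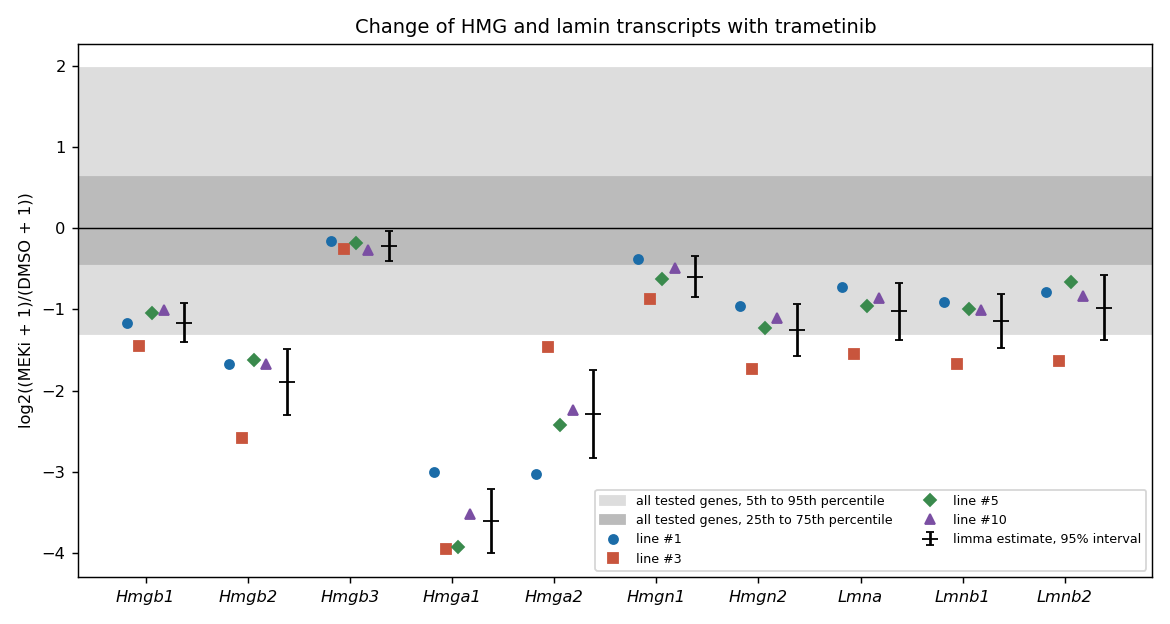
Log2 change of each gene in each line, with the limma estimate and its 95% interval at the right of each gene, over bands for all tested genes. Line #3 (squares) is the lowest point for 8 of the 10 genes and the highest for Hmga2, and Hmgb3 is the gene whose points all lie in the central band.

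Line #3 showed the largest fall for 8 of the 10 genes. The exceptions were Hmga2, with its smallest fall there, and Hmgb3, with its largest in line #10. The median log2 change over the 10 genes was -1.59 in line #3, -0.93 in line #1, -1.02 in line #5 and -1.01 in line #10. This pattern was broad, since line #3 also had the largest fall in 67.9% of the 4075 genes called lower and in 37.5% of all tested genes. The median change of genes called lower was -1.03 in line #3 and between -0.70 and -0.66 in the others.

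Levels of different genes were compared per kb of merged exons, in normalized counts per kb and as the percentile among 13143 protein-coding genes tested. With DMSO, the mean of the 4 lines was 7579 ± 4295 (SD) for Hmga1, 5195 ± 1599 for Lmna and 4836 ± 1369 for Hmgn1, all above the 98th percentile at 98.5, 98.4 and 98.2. Hmgb2 followed at 2614 ± 402, Hmgb1 at 2401 ± 544, Lmnb1 at 2383 ± 431 and Hmgn2 at 2204 ± 325, then Hmga2 at 1696 ± 936 and Hmgb3 at 1561 ± 664. Neighbors in this order overlapped in their libraries, except that Lmnb2, at 539 ± 74.5, lay below every other gene. With the length of the longest coding transcript in place of merged exons, Lmna led at 9609 and Hmga1 followed at 8049, while Lmnb2 stayed last at 654. The order between them changed as well, with Hmgn2 at 5332, Hmgb1 at 4249, Hmga2 at 3015, Hmgb2 at 2987 and Lmnb1 at 2483, so it depends on the length used.

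With MEKi the order of levels was different. Hmgn1 (3304 ± 1225 per kb) and Lmna (2740 ± 1205) stayed at the 97.8th and 97.4th percentile, and Hmgb3 moved from the 91.1st to the 90.9th. Hmga1 dropped from the 98.5th to the 77.1st percentile and Hmga2 from the 91.0th to the 63.7th. Hmgb2 went from the 95.7th to the 84.9th, and Lmnb2 from the 74.9th to the 59.6th. The HMGA genes thus moved furthest down the order, and Lmna, Hmgn1 and Hmgb3 moved little. A small shift in percentile did not mean a small fall. Lmna (log2 fold change -1.02) went from 5195 to 2740 per kb and moved little, while Lmnb2 (-0.98) moved further.

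**Figure D3:**
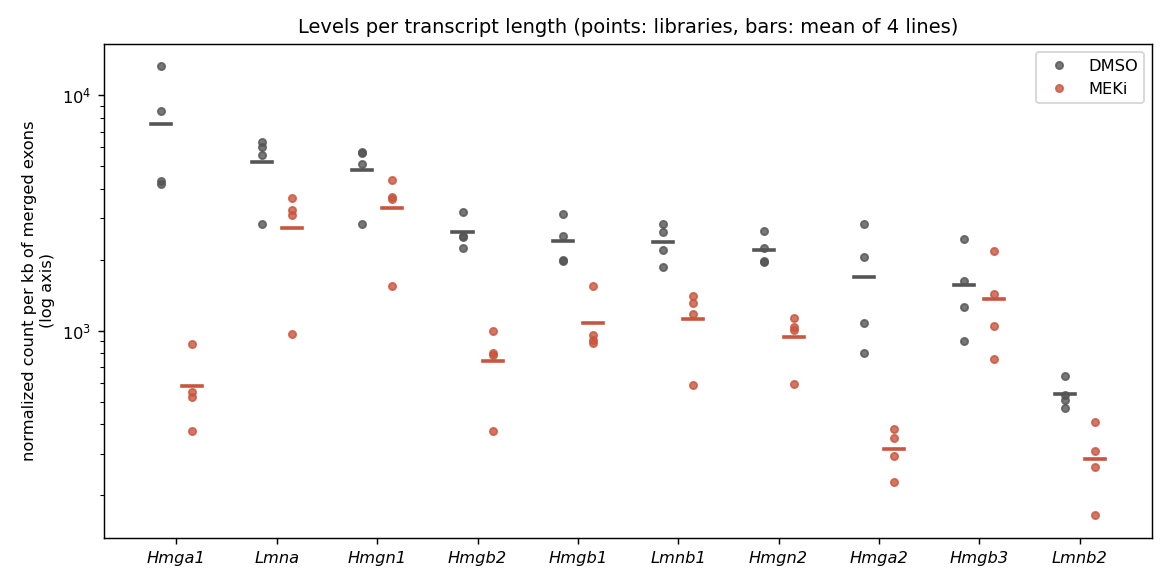
Normalized counts per kb of merged exons (log axis) for each gene, ordered by the DMSO mean; points are the 4 libraries of a treatment and bars their means. Hmga1 goes from 7579 to 581 and from the first place to the eighth, whereas Hmgb3 stays near its DMSO level.

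Other genes of the same families and pathways were read from lists, by counts of genes called by limma and by their median beside 0.07 for all tested genes. The counts stand beside 25.6% of all tested genes called lower and 27.3% called higher. Of 14 other HMG and HMG-box genes, 4 were lower and 2 higher, with a median of -0.04. Those that fell were Ssrp1, a subunit of the histone chaperone FACT (-1.05), Tfam, which packages mitochondrial DNA (-1.04), Hmgn5 (-0.72) and Ubtf, a factor of ribosomal RNA transcription (-0.69). Hmg20b, a part of a corepressor complex, rose by 0.90 and Bbx by 0.52. The other 8 were not called.

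Nuclear envelope partners of lamins went both ways. Of 19, 8 were lower and 3 higher, with a median of -0.09. The lamin B receptor Lbr fell most (-1.32), with 5190 to 10022 normalized counts in DMSO libraries and 2148 to 3069 in MEKi libraries. Banf1, which ties chromatin to the envelope, fell by 1.15 on the log2 scale and the nesprin gene Syne3 was lower at -1.06. Tmpo, which encodes LAP2 proteins, had -0.95 and emerin (Emd) -0.51, both called lower. Sun2, the inner-membrane part of the LINC complex, rose by 1.51, with 1219 to 1673 normalized counts in DMSO libraries and 3403 to 4609 in MEKi libraries. The nesprin gene Syne4 rose by 1.49 at a mean of 17.3 with DMSO and 50.1 with MEKi. Sun1, the paralog of Sun2, had 0.21 and was not called (adjusted p = 0.0922 in limma).

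Of 5 genes for enzymes that process lamin tails, 2 were lower and 0 higher, with a median of -0.20. The farnesyltransferase subunits Fnta (-0.53) and Fntb (-0.55) were lower, while Rce1, Icmt and the prelamin A protease Zmpste24 were not called. Of 7 linker histone genes, whose proteins compete with HMG proteins for nucleosomes, 1 was called (median 0.02), Hist1h1b, which was higher by 1.05 at 28.1 normalized counts with MEKi. That call was lost in 7 of 15 alternatives, among them quantile normalization, no filter, no block and leaving out line #1 or line #10. Transcripts of most linker histones lack a poly(A) tail, and the libraries were poly(A)-selected. In the let-7 and HMGA2 axis, 6 genes were tested, with a median of -0.29. Arid3a rose by 1.45, Igf2bp1 fell by 0.56, and Lin28b, which ranged from 6.23 to 695 normalized counts between DMSO lines, was not called (log2 fold change -0.39, adjusted p = 0.362 in limma).

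Receptors and partners of extracellular HMGB1 went the other way from Hmgb1. Of 7 tested, 6 were higher and 0 lower, with a median of 0.89. The number higher was 4 with quantile normalization and 2 without the line as a block. Without line #3, 1 was lower, the TIM-3 gene Havcr2. Cxcl12, which forms a complex with HMGB1, rose by 3.84, Tlr2 by 2.19, Tlr4 by 0.91 and Ager, the receptor RAGE, by 0.89. Ager stayed low, at 68.7 normalized counts on average with DMSO and 131 with MEKi. In line #10, Cxcl12 read only 7.70 with DMSO and 26.5 with MEKi, and Tlr4 only 16.7 and 34.9. The other lines read 2741 to 7487 for Cxcl12 and 845 to 994 for Tlr4 with MEKi.

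Chromatin factors of senescent foci were mostly lower or not called. Of 10 tested, 6 were lower and 1 higher, with a median of -0.49. Without the line as a block, 3 were lower and 0 higher. The histone chaperone Asf1b fell by 1.57, and the HP1 genes Cbx5 and Cbx3 fell by 0.97 and 0.94, whereas Ubn2 rose by 0.40. Of 24 proliferation genes, 24 were lower, with a median of -1.46, led by Tk1 (-2.16), Mybl2 (-1.95) and Mcm5 (-1.85). Their part in the change of the HMG and lamin transcripts was not tested. Of 21 genes known to rise in senescence, 8 were higher and 2 lower, with a median of 0.25. Without line #10, 5 were higher, without the line as a block 2 were higher and 1 was lower, and without line #3, 4 were lower. Ccl2 rose by 3.14, Igfbp7 by 2.28 and Cdkn1c by 2.13, while Igfbp3 fell by 2.95 and Timp1 by 0.74. Of 10 genes driven by MAPK signaling 9 were lower, with a median of -2.04, among them Etv5 (-4.82) and Spry4 (-3.61). Epha4, the remaining gene, had 0.87 and was not called (adjusted p = 0.0504 in limma), with a higher value in 4 lines. In 5 of 15 alternatives 1 gene of this list was called higher. Rescaling to equal totals raised the number of higher genes from 2 to 5 for other HMG genes and from 3 to 8 for lamin partners. For other HMG genes it was 1 without line #5, without line #10 or without the line as a block.

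**Figure D4:**
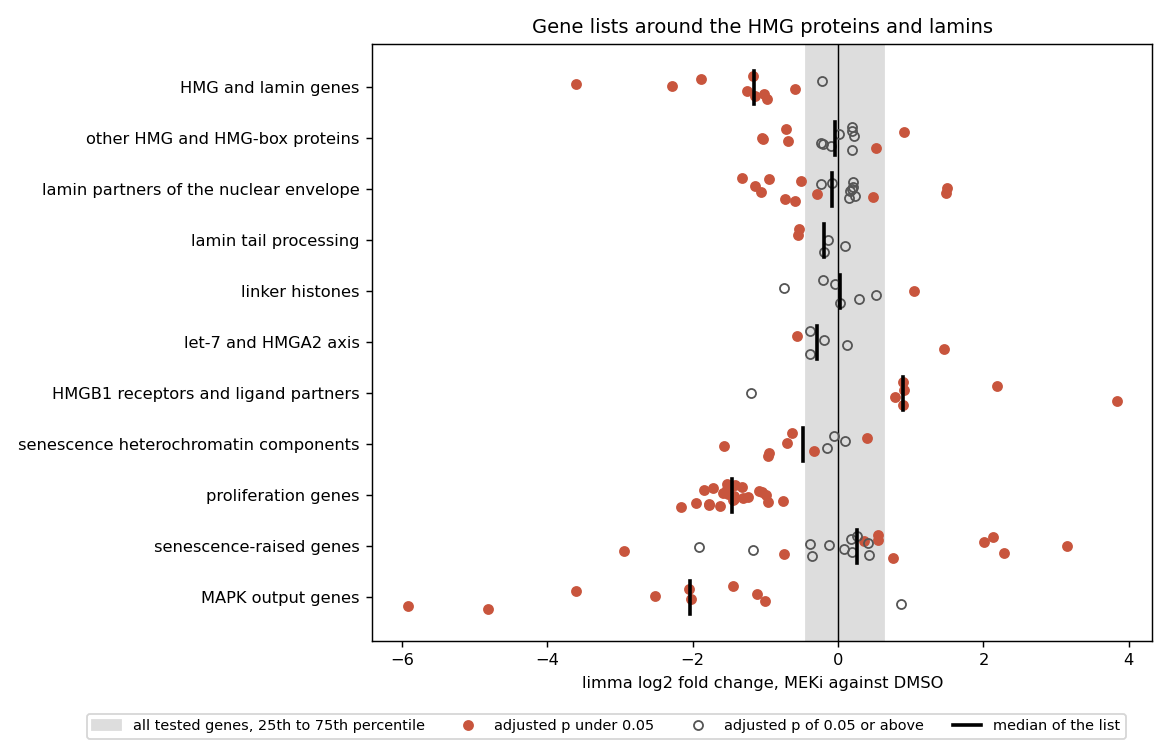
Limma log2 fold change of each tested gene in each list, with filled points for an adjusted p under 0.05 and a bar at the list's median. The HMG and lamin genes, the proliferation genes and the MAPK output genes except Epha4 (0.87) lie to the left. Of the HMGB1 receptors and partners, 6 of 7 lie to the right, and the other HMG genes and lamin partners on both sides.

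The genes whose levels ran closest to each member over the 8 libraries were found by Pearson's r on log2(normalized count + 1). This description mixes treatment and line. For Hmgb1 they were Alad (r = 0.998), Psmb10 and Ptprr, and for Hmgb2 AC153546.1, Rbmxl1 and Rps12. Hmga1 ran closest to Ercc8 (0.985), Slc12a2 and Impa2, and Hmga2 to Rbpj (0.983), Ube2q2 and Adam9. For Hmgn1 they were Psmd2 (0.994), Ndufa12 and Gnai3, and for Hmgn2 Rpl37 (0.999), Bzw1 and Serbp1. Lmna ran closest to Gspt1, Ubr7 and Gm12603, Lmnb1 to Rprd1b, Gfm1 and Polr1e, and Lmnb2 to Lsm3, Mad2l1 and Mthfd1l. Hmgb3 ran closest to Scoc (0.986), Vps72 and Rlim, none of them called. An r over 0.9 was reached with 9.99% of tested genes by Hmgn2 and 9.33% by Hmgb2, but with 0.794% by Hmgb3. Among the members, Hmgn1 and Lmna were most alike (r = 0.986), then Hmgn2 and Lmnb1 (0.970), and Hmgb1 and Hmgb3 had an r of -0.03.

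Shared sequence bears on some of these values. For the other members, the share of 31-base transcript words found also in 1 other annotated gene was highest for Hmgn2 (28.5%, in Gm10282), Hmgb1 (22.3%, in Gm21596), Hmgb3 (21.1%, in Gm6104) and Hmgb2 (18.0%, in Gm4739). Over all other genes the share was 33.0% for Hmgb3, 29.8% for Hmgn2, 23.0% for Hmgb1 and 21.4% for Hmgb2. It was 6.09% for Hmgn1, 2.26% for Hmga2, 1.41% for Lmnb2, 1.14% for Lmna and 0 for Lmnb1. The calls of Hmgb1, Hmgb3 and Hmgn2 did not change when table rows named as their copies were added, 11 for Hmgb1 and 1 each for Hmgb3 and Hmgn2. Exons of Hmgb1 overlap Uspl1 by 42 bases, those of Hmga1 overlap AI413582 by 102, and those of Hmga2 overlap 1700006J14Rik by 140, all on the opposite strand. Hmgb1 also overlaps the lincRNA Mm2pr by 37 bases on the same strand, which a stranded kit cannot separate. The kit keeps strand, but whether counting used it is not given in the sources used here. The opposite-strand partners averaged 2562, 204 and 4.34 normalized counts with DMSO, against 12058, 16106 and 11487 for the HMG genes.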

How the data were processed

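The authors isolated RNA with the Maxwell RSC simplyRNA kit, prepared poly(A) libraries with the TruSeq Stranded mRNA kit and, per the labels, used mm10 (GRCm38). The submitters' processing notes name CASAVA 2.17, Salmon 0.12 and DESeq2 1.18 without roles. The deposited unit is a normalized count per gene symbol, a signal that the authors scaled between libraries. The annotation and scaling are not given in the sources used here, and whole reads could not be recovered. Depth and counting precision were taken from the smallest spacing of low values, and cover counting error only.

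Values were analysed as log2(normalized count + 1) with limma 3.58.1 in R 4.3.3 (trend, line as block, mean of at least 10, Benjamini-Hochberg). A fold change on this scale understates the change of low genes. Libraries of a line carry the same line number and deviated together (r of 0.644, 0.647, 0.631 and 0.724 across genes). The fit was tested on simulated data. Python 3.11.15, pandas 2.3.3, numpy 2.4.6, Biopython 1.88 and matplotlib 3.10.9 handled tables, sequences and plots. Lengths and positions came from GENCODE M21 and promoters from RefSeq, by symbol; 82.7% of tested genes had a protein-coding length.

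Named genes were the 10 members, the 3 genes nearest each by Pearson's r, up to 3 of the largest called rises and falls of each list, and Dusp6 and Etv4. Others were named after their values were seen. Members and lists were chosen with earlier results of these data known, so list counts are descriptions. The alternatives were pseudocounts of 0.1 and 5, equal totals, quantile normalization, median centring, no filter, a mean of 50, no block, other variance models, a minimum change of 2-fold, added copy rows, another transcript length and leaving out each line. Some items are not reported here.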

Additional observations from a re-analysis of the deposited data

Results flagged for a closer look

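For each HMG and lamin gene, 30 groups of 4 values in all were examined for a library far from the others, and 3 were found, where chance gives about 1.5. Hmgb1 with MEKi stood at 7803 normalized counts in line #10, against 4460 to 4807 in the other lines; line #10 was the highest with DMSO as well. The log2 change of Hmgb2 was -2.58 in line #3, against -1.68 to -1.63 in the other lines. The log2 change of Lmnb1 was -1.67 in line #3, against -1.005 to -0.911 in the others. Both changes kept their call without line #3.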

How the results depend on the processing

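No HMG or lamin gene changed direction under any alternative run. Hmga1, Hmga2 and Hmgb2 passed under every one. With a minimum change of 2-fold, 3 of the 10 genes were called lower, as were 176 of all tested genes, and 557 were called higher. Hmgb1 (-1.17, adjusted p = 0.548), Hmgn2 (-1.26, 0.421), Hmgn1 (-0.60), Lmna (-1.02), Lmnb1 (-1.15) and Lmnb2 (-0.98, the last 4 with an adjusted p of 1.00) then missed the threshold, because the limma treat test asks for a change beyond 2-fold; in the gene lists 6 genes were then called higher and 9 lower, against 22 and 56. Without the line as a replicate block, which ignores the pairing, Hmgn1 (-0.60, adjusted p = 0.239 in limma) and Lmna (-1.02, 0.113) were no longer called, 2205 genes were higher and 2347 lower, and 8 list genes were higher. It changed the call of no other HMG or lamin gene. Hmgb3 passed with a pseudocount of 5 (-0.22, adjusted p = 0.0489 in limma), median centring (-0.28, 0.0226), a filter at 50 (-0.22, 0.0414), robust estimation (-0.22, 0.0477) and without line #3 (-0.21, 0.0469); its adjusted p ranged from 0.0226 to 1.00, and the cause was not tested. Leaving out each line in turn gave 3383 to 4195 genes higher and 3302 to 4007 lower, 9 to 10 of the HMG and lamin genes lower, and -0.24 to -0.20 for Hmgb3. Equal totals shifted the median of all genes by 0.13 and quantile normalization by -0.10; all 10 genes stayed below 0. Depth did not limit any of the 10 values, the lowest of which rests on about 750 reads.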
